A study of Mus musculus with 8 samples.

Results

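The Notch receptors, ligands and targets described here are 10 genes, taken as the rows of the deposited expression table whose gene symbol is Notch1, Notch2, Notch3, Notch4, Dll1, Dll4, Jag1, Hey1, Heyl or Hes1. They are 10 of 22520 genes in the table, and each symbol was found. Expression was measured by RNA sequencing in 8 libraries of microvascular cells from C57BL/6 mice at postnatal day 14, and the labels call each library a mix from heart, liver and lung. The study's methods describe liver endothelial cells and heart and lung endothelial cells as separate sets, and which of these the 8 libraries belong to is not settled, so the genotype and isolation given next are taken from the study as a whole. The 4 LRP1 KO libraries came from mice with an endothelial LRP1 knockout, which the study's methods give as LRP1 f/f with Cdh5-CreER+/-, and the 4 wild-type (WT) libraries from littermates, given as LRP1 f/f with Cdh5-CreER-/-. Both groups thus carried the floxed LRP1 alleles, and only the knockouts carried CreER, a Cre recombinase that works after induction and is driven here by the promoter of the endothelial gene Cdh5. An effect of the transgene and an effect of LRP1 loss therefore cannot be told apart in this design. PECAM-1, an endothelial surface protein, was the handle by which the cells were taken up on antibody-coated beads, and the sources used here do not say whether a library is 1 mouse or a pool. P-values therefore measure the spread between these libraries, which may be technical.

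Notch signaling passes between cells that touch. A ligand of the Delta-like or Jagged family on the sending cell binds a Notch receptor on its neighbour, the receptor is cut by an ADAM protease and then by gamma-secretase, and the freed intracellular part joins RBPJ in the nucleus to switch on repressors of the HES and HEY families. In blood vessels the pathway is known for the choice between tip and stalk cells in a sprout, for arterial identity and for the contact between endothelium and smooth muscle. LRP1, a large endocytic receptor related to the low-density lipoprotein receptor, takes up extracellular ligands, and the question of the comparison is which of these genes change when it is deleted.

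Values are FPKM, which are sequenced fragments divided by transcript length and by the mapped fragments of the library, and so levels per length. They carry the same distribution in every library, with sums of 503571 to 504112, so sequencing depth is unknown and the error of a value is judged only from the spread between libraries. Lrp1, the targeted gene, had 103.2 to 140.4 FPKM in WT, against 3.45, 5.20, 2.79 and 7.72 FPKM in LRP1 KO, so the labels matched the targeted gene in all 8 libraries. The label endothelial was matched only in part. All 12 endothelial markers examined had a WT mean of at least 1 FPKM, but their sum was 140.5 to 155.5 FPKM in WT, where the sum of 9 fibroblast markers was 2348 to 3533 FPKM and that of 10 mural cell markers (pericytes and smooth muscle) was 668.2 to 833.9 FPKM. LRP1 KO library 4 stood apart from the other LRP1 KO libraries. The endothelial sum was 571.0, 354.2 and 414.8 FPKM in libraries 1 to 3 and 145.9 FPKM, inside the WT range, in library 4. The differences of the tested members and, for the other pathway genes as a whole and each marker list with a tested gene, the counts of called genes are given with and without it. Lrp1 was low in all 4 LRP1 KO libraries, where the fibroblast sum was 1958 to 3123 FPKM, above the endothelial sum. In which cell types Lrp1 was lost was not tested. The summed FPKM of 4 Y-linked genes (Ddx3y, Eif2s3y, Kdm5d and Uty, chosen after their values were seen) was under 1 in WT library 4 and LRP1 KO library 2, at 0.112 and 0.0955, and 21.6 to 63.9 in the other 6 libraries. Thus 1 library of each group had almost no Y-linked RNA, and no fit had a term for sex.

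The sequences below are the promoters of Jag1 and Notch4, the ligand and the receptor that passed the test, and of Notch2, the most abundant receptor, so that a reader can compare the start regions of genes that did and did not rise. Each window holds 300 bases, 250 before and 50 after the RefSeq start site, read 5′ to 3′ on the gene's strand from GRCm38.p6, and CpG dinucleotides are in capitals. The windows are chr2:137116471-137116770 on the minus strand for Jag1, chr17:34564045-34564344 on the plus strand for Notch4 and chr3:98013288-98013587 on the plus strand for Notch2.
Jag1: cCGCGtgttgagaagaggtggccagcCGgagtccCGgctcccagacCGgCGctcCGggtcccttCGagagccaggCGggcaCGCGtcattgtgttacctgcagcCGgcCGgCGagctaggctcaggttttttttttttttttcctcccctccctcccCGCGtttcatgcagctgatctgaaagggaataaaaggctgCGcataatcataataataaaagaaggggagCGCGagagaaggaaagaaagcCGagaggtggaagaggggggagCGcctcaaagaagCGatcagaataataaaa
Notch4: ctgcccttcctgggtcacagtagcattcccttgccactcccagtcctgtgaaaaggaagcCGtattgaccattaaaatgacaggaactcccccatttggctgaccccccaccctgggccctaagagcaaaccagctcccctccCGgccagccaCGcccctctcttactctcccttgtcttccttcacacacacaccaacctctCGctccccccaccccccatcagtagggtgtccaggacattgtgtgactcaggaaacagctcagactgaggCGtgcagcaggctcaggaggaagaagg
Notch2: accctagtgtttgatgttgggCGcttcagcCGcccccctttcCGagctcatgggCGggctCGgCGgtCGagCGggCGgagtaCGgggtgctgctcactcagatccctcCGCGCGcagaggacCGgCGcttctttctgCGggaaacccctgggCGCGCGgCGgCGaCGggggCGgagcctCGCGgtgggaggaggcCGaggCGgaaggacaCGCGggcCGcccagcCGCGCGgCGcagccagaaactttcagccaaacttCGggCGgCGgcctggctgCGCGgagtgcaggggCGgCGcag

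The 3 windows differed in base makeup. Notch4 held 5 CpG dinucleotides and 58.3% G or C, Jag1 held 22 and 55.7%, and Notch2 held 41 and 73.0%, beside medians of 7 and 52.7% over all 32851 RefSeq windows. Jag1 and Notch4 thus lay on either side of the median CpG count. The core bound by RBPJ, searched as TGGGAA on both strands, was in 25.6% of all windows and in 0 of the 8 windows that were given for 7 members (Notch1 to Notch4, Dll4, Jag1 and, with 2 start sites, Dll1). This says only that these letters are not in these windows. Windows for Hey1, Heyl and Hes1 were not used here.

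Of the 10 members, 6 (Notch1 to Notch4, Jag1 and Hes1) reached 1 FPKM in at least 4 libraries and were tested, and 3 of these were higher in LRP1 KO at a limma adjusted p under 0.05: Jag1, Notch4 and Hes1. None was lower. Over all 11389 tested genes, 6.27% were called higher and 7.31% lower. When the log2(FPKM + 1) difference also had to reach a 2-fold change, Jag1 alone remained, beside 1.12% of tested genes called higher by that rule. The 4 LRP1 KO libraries lay wholly above the 4 WT libraries in 2 of the 6 tested members, Jag1 and Notch4, and in 8.84% of all tested genes. All 6 tested members had an unadjusted p under 0.05 in limma, beside 33.7% of all tested genes. The calls were not stable to single libraries. Without LRP1 KO library 4, all 6 tested members passed the adjusted threshold, 5 higher and Notch2 lower, in a fit that called 12.6% of all tested genes higher and 13.9% lower. Without WT library 4, Jag1 alone passed, and without any single one of the other 6 libraries none did, although 4 or 5 members then had an unadjusted p under 0.05, as did 24.6% to 32.9% of all tested genes. Because the cells were measured in bulk, a change in the number of cells of a type and a change in RNA per cell cannot be told apart, here and in every result that follows.

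**Figure D1:**
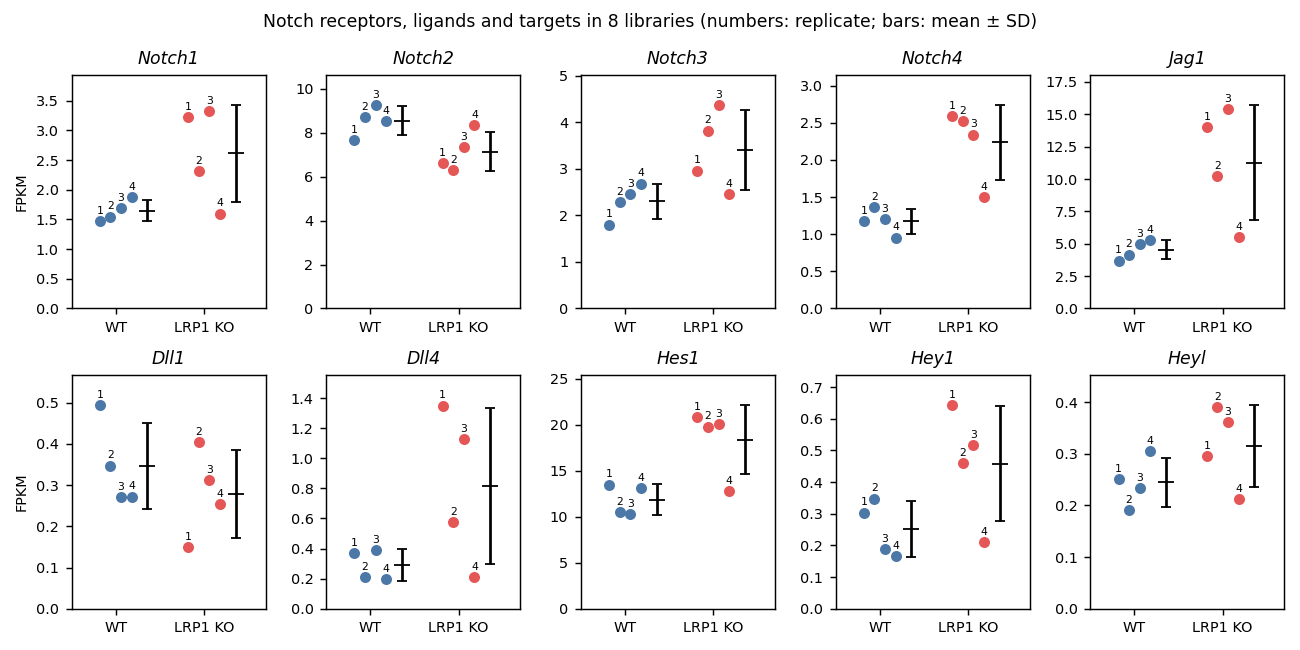
FPKM of the 10 members in each library, with 1 panel a gene, a linear axis from 0, blue points for WT, red points for LRP1 KO, replicate numbers above the points and black bars for mean ± SD (n = 4). Groups do not overlap for Jag1 and Notch4, and LRP1 KO library 4 is the lowest LRP1 KO library in 8 of the 10 panels.

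In WT the order of levels per length was Hes1, Notch2, Jag1, Notch3, Notch1, Notch4, Dll1, Dll4, Hey1 and Heyl. Hes1 (11.8 ± 1.66 FPKM, SD, n = 4), Notch2 and Jag1 each had a range clear of the next gene's. Notch3 and Notch1 overlapped in range, Notch4 lay below both, and Dll1, Dll4, Hey1 and Heyl, all under 0.5 FPKM in every WT library, overlapped from neighbour to neighbour. The level of Hes1 was above that of 66.9% of the genes with a WT mean above 0, and that of Heyl above 24.4%. In LRP1 KO, Jag1 stood second and overlapped both Hes1 and Notch2, while Notch3, Notch1 and Notch4 became overlapping neighbours. Dll4, with a mean of 0.818 FPKM, led the low group there.

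Among the receptors, Notch4, a receptor known mainly from endothelium, was the only one called higher. Whether its difference was larger than that of Notch1 or Notch3 was not tested. Notch4 (ENSMUSG00000015468, chromosome 17, 34564268 to 34588503, plus strand, GRCm38) had 1.18, 1.36, 1.20 and 0.953 FPKM in WT, against 2.59, 2.52, 2.34 and 1.50 FPKM in LRP1 KO (values of libraries 1 to 4 in order, here and below). The groups did not overlap, and of the LRP1 KO libraries number 4 lay nearest to WT. The mean went from 1.17 ± 0.167 to 2.24 ± 0.503 FPKM (SD, n = 4), a ratio of 1.90. On the log2(FPKM + 1) scale the difference was 0.56 (SE 0.13, 95% interval 0.28 to 0.85, limma adjusted p 0.0238), and the two-sided exact permutation p was 0.0286, the smallest that 4 against 4 libraries allow. Without LRP1 KO library 4 the difference was 0.68 (limma adjusted p 0.00153), and without any 1 of the other 7 libraries the adjusted p was 0.0503 to 0.0721.

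Notch1, the receptor needed for vascular development, had higher values in 3 LRP1 KO libraries but did not pass the test. Notch1 (ENSMUSG00000026923, chromosome 2, 26457903 to 26516663, minus strand) had 1.47, 1.55, 1.69 and 1.88 FPKM in WT, against 3.23, 2.31, 3.318 and 1.597 FPKM in LRP1 KO. LRP1 KO libraries 1 to 3 were above every WT library, and library 4 lay among them. The means were 1.65 ± 0.180 and 2.61 ± 0.817 FPKM (SD, n = 4). The log2 difference was 0.42 (SE 0.16, unadjusted 95% interval 0.07 to 0.77, limma adjusted p 0.0995), and without LRP1 KO library 4 it was 0.57 (limma adjusted p 0.0087).

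Notch3, the receptor typical of vascular smooth muscle and pericytes, showed the same arrangement. Notch3 (ENSMUSG00000038146, chromosome 17, 32120820 to 32166852, minus strand) had 1.80, 2.28, 2.45 and 2.68 FPKM in WT, against 2.96, 3.82, 4.37 and 2.45 FPKM in LRP1 KO. Again libraries 1 to 3 of LRP1 KO were above WT and library 4 was inside its range. The means were 2.30 ± 0.373 and 3.40 ± 0.858 FPKM (SD, n = 4), with a log2 difference of 0.40 (SE 0.15, unadjusted 95% interval 0.07 to 0.73, limma adjusted p 0.0936) that became 0.51 (limma adjusted p 0.0224) without LRP1 KO library 4.

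Notch2, which many tissues use, was the receptor with a lower mean in LRP1 KO. Notch2 (ENSMUSG00000027878, chromosome 3, 98013527 to 98150361, plus strand) had 7.67, 8.69, 9.26 and 8.53 FPKM in WT, against 6.60, 6.29, 7.34 and 8.33 FPKM in LRP1 KO. LRP1 KO libraries 1 to 3 were below every WT library and library 4 was not. The means were 8.54 ± 0.654 and 7.14 ± 0.906 FPKM (SD, n = 4). The log2 difference was -0.23 (SE 0.09, unadjusted 95% interval -0.44 to -0.03, limma adjusted p 0.111), and -0.30 without LRP1 KO library 4 (limma adjusted p 0.0291). In the annotation, exons of Notch1 and Notch3 overlap transcripts of the opposite strand and exons of Notch2 an unclassified transcript of the same strand, and whether the library kit's strand was used is not stated, so reads of these neighbours may be included.

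The total level of the receptors overlapped between the groups, while the shares of Notch2 and Notch4 in it did not. The 4 receptors summed to 13.7 ± 1.07 FPKM (SD, n = 4) in WT, against 15.4 ± 1.46 FPKM in LRP1 KO (SD, n = 4). The share of Notch2 in that sum was 63.3%, 62.6%, 63.4% and 60.7% in WT libraries 1 to 4 and 43.0%, 42.1%, 42.3% and 60.0% in LRP1 KO libraries 1 to 4. LRP1 KO libraries 1 to 3 thus lay close together and far below WT, while library 4 was just under the lowest WT library. The share of Notch4 was 6.79% to 9.79% in WT and 10.8% to 16.9% in LRP1 KO, also without overlap, and the shares of Notch1 (12.1 ± 0.96% and 16.8 ± 4.19%, SD, n = 4) and Notch3 (16.8 ± 1.75% and 21.9 ± 4.04%, SD, n = 4) overlapped. Shares add up to a fixed total, so these values are a description and not separate tests.

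**Figure D2:**
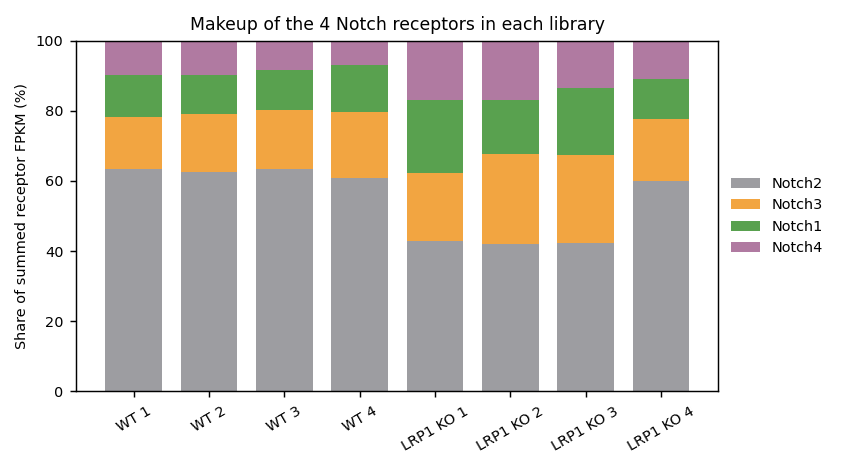
Share (%) of the summed FPKM of the 4 Notch receptors taken by each receptor, with 1 stacked bar a library. Notch2 takes 60.7% to 63.4% in the WT libraries, 42.1% to 43.0% in LRP1 KO libraries 1 to 3 and 60.0% in LRP1 KO library 4.

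Among the ligands, Jag1 had the largest change of the tested members. Jag1 (ENSMUSG00000027276, chromosome 2, 137081456 to 137116644, minus strand), a ligand on endothelial and smooth muscle cells among others, had 3.70, 4.16, 4.98 and 5.29 FPKM in WT, against 14.0, 10.2, 15.4 and 5.51 FPKM in LRP1 KO. LRP1 KO libraries 1 to 3 were far above WT, and library 4 was just above the highest WT library. The mean went from 4.53 ± 0.730 to 11.3 ± 4.44 FPKM (SD, n = 4), a ratio of 2.49. The log2(FPKM + 1) difference was 1.07 (SE 0.26, 95% interval 0.49 to 1.66, limma adjusted p 0.0291, exact permutation p = 0.0286). It was 1.35 (limma adjusted p 0.000773) without LRP1 KO library 4 and 0.91 without library 3, and the limma adjusted p was above 0.05, at most 0.0835, when any 1 of 6 libraries was left out (all but WT library 4 and LRP1 KO library 4).

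The Delta-like ligands were too low to enter the test. Dll4, the ligand of endothelial tip cells and arteries (ENSMUSG00000027314, chromosome 2, 119325784 to 119335962, plus strand), had 0.372, 0.208, 0.390 and 0.195 FPKM in WT, against 1.35, 0.578, 1.13 and 0.212 FPKM in LRP1 KO. Libraries 1 to 3 of LRP1 KO were above every WT library and library 4 was within the WT range. The ratio of means was 2.81, from 0.291 ± 0.104 to 0.818 ± 0.519 FPKM (SD, n = 4), but the exact permutation test gave p = 0.0857, and with no filter on low values the log2 difference was 0.45 (SE 0.20, limma adjusted p 0.191). Dll1, a ligand used in many developing tissues (ENSMUSG00000014773, chromosome 17, 15367354 to 15376872, minus strand), had 0.493, 0.347, 0.271 and 0.272 FPKM in WT, against 0.149, 0.404, 0.311 and 0.253 FPKM in LRP1 KO, with overlapping groups (exact permutation p = 0.4). The unfiltered log2 difference of Dll1 was -0.07 (95% interval -0.24 to 0.10). Antisense or other opposite-strand transcripts overlap exons of both Dll1 and Dll4, with the limit given for Notch1.

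Summed over Jag1, Dll1, Dll4 and the ligands Jag2 and Dll3, the ligand level was 4.79, 5.02, 5.93 and 5.95 FPKM in WT, against 15.9, 11.4, 17.1 and 6.13 FPKM in LRP1 KO. The groups did not overlap, and LRP1 KO library 4 exceeded the highest WT library by a small margin. Jag1 made up 83.3 ± 4.78% of the sum in WT and 89.3 ± 0.790% in LRP1 KO (SD, n = 4), so most of the sum was Jag1.

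Among the targets, Hes1, a transcriptional repressor switched on by Notch and by other signals, was the most abundant member. It was the only target among the members that was tested in limma, and it was called higher. Hes1 (ENSMUSG00000022528, chromosome 16, 30064384 to 30067796, plus strand) had 13.5, 10.5, 10.3 and 13.1 FPKM in WT, against 20.8, 19.8, 20.1 and 12.8 FPKM in LRP1 KO. Libraries 1 to 3 of LRP1 KO lay within a narrow range above WT, while library 4 was below the highest 2 WT libraries, so the groups overlapped. The mean went from 11.8 ± 1.66 to 18.4 ± 3.72 FPKM (SD, n = 4), a ratio of 1.55. The log2 difference was 0.58 (SE 0.15, 95% interval 0.24 to 0.92, limma adjusted p 0.0369), while the exact permutation test gave p = 0.0857. Without LRP1 KO library 4 it was 0.74 (limma adjusted p 0.00161), and without any 1 of the other 7 libraries the adjusted p was 0.0547 to 0.106.

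The HEY repressors were listed below 1 FPKM in all 8 libraries and were not tested. Hey1, a Notch target in arterial endothelium (ENSMUSG00000040289, chromosome 3, 8663359 to 8667256, minus strand), had 0.304, 0.348, 0.188 and 0.166 FPKM in WT, against 0.643, 0.461, 0.517 and 0.211 FPKM in LRP1 KO. Libraries 1 to 3 of LRP1 KO were above WT and library 4 was among the WT values (exact permutation p = 0.0857, unfiltered log2 difference 0.21, 95% interval -0.01 to 0.43). Heyl, a related repressor known from vascular smooth muscle (ENSMUSG00000032744, chromosome 4, 123233556 to 123249875, plus strand), had 0.251, 0.191, 0.233 and 0.305 FPKM in WT, against 0.296, 0.390, 0.362 and 0.213 FPKM in LRP1 KO. Here the groups overlapped in more than library 4 (exact permutation p = 0.2, unfiltered log2 difference 0.08, 95% interval -0.03 to 0.19). Hey2, another member of the HEY family, from the list of other targets, had 0.208, 0.250, 0.185 and 0.261 FPKM in WT, against 0.651, 0.640, 0.777 and 0.283 FPKM in LRP1 KO. Its groups did not overlap (exact permutation p = 0.0286), and it too was below the filter (unfiltered limma adjusted p 0.0603).

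Among the other genes of the pathway, Dtx3l rose and Adam17, Psen2, Aph1a, Neurl2 and Dtx3 fell. Across 50 other pathway genes in 7 lists, 35 were tested, 1 was called higher and 5 lower, and the median log2 difference of the tested genes was -0.02, beside -0.01 over all tested genes. Over all tested genes 6.27% were called higher and 7.31% lower. Of 10 genes of the enzymes that cut Notch, counting the gamma-secretase subunits that are not themselves proteases, 3 fell and none rose. Adam17, which can cut ligand-bound Notch at the cell surface, had 19.7 to 23.9 FPKM in WT, against 14.5 to 18.7 FPKM in LRP1 KO (log2 difference -0.40, SE 0.08, limma adjusted p 0.0193). Psen2, a catalytic subunit of gamma-secretase, had 33.6 to 43.2 and 24.7 to 32.8 FPKM (-0.40, SE 0.10, limma adjusted p 0.0330). Aph1a, a gamma-secretase subunit that is not catalytic, had up to 77.4 FPKM in WT and 64.3 to 67.3 FPKM in LRP1 KO (-0.18, SE 0.05, limma adjusted p 0.0459). In each of these 3 genes LRP1 KO lay wholly below WT, a split whose share over all tested genes is not given here. Without LRP1 KO library 4, 4 of the 35 pathway genes were called higher and 6 lower, and without any 1 of the other 7 libraries 1 was called higher and 0 to 4 lower. The background of the fit without LRP1 KO library 4 was 12.6% higher and 13.9% lower. No gene was called lower without LRP1 KO library 1 or 2 (limma, 11 of the 35 at an unadjusted p under 0.05 in each), so all 5 genes that fell lost their call there, while Dtx3l passed without any 1 of the 8 libraries (limma adjusted p 0.00631 to 0.0499).

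Of 6 genes listed as ubiquitin ligases of Notch ligands, 4 were tested and Neurl2 fell. Neurl2 belongs to the Neuralized family but is known from muscle, where it directs a ligase to beta-catenin, and not for a role in Notch signaling. It had 6.28 to 8.40 FPKM in WT, against 2.51 to 5.36 FPKM in LRP1 KO (log2 difference -0.72, SE 0.17, limma adjusted p 0.0263). Neurl1b, a ligase of the same family and below the filter, had 0.436 to 0.506 FPKM in WT, against 0.247 to 0.322 FPKM in LRP1 KO, without overlap (unfiltered log2 difference -0.20, SE 0.03, limma adjusted p 0.0097). Of the 9 regulators of Notch turnover, 8 were tested and both calls were Deltex family members. Dtx3l, which is also known as a partner in the response to interferon and DNA damage, rose from 3.44 to 4.02 FPKM in WT to 4.70 to 7.38 FPKM in LRP1 KO (0.58, SE 0.11, limma adjusted p 0.0160), with its highest value in library 4. Dtx3 fell, with 39.7 to 47.2 FPKM in WT, against 33.6 to 35.1 FPKM in LRP1 KO (-0.28, SE 0.06, limma adjusted p 0.0234). The highest value of Dtx3l was thus in the library in which 8 of the 10 members had their lowest LRP1 KO value.

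None of the 7 tested nuclear partners was called. Maml3, a coactivator of the Mastermind-like family and the list's one gene below the filter, had 0.759 to 1.05 FPKM in WT, against 0.403 to 0.559 FPKM in LRP1 KO, without overlap (unfiltered log2 difference -0.44, SE 0.06, limma adjusted p 0.0135). Rbpj, the DNA-binding partner of the Notch intracellular part, had 16.5 to 20.5 FPKM in WT, against 19.4 to 22.9 FPKM in LRP1 KO (log2 difference 0.16, SE 0.08, 95% interval -0.02 to 0.34, limma adjusted p 0.184). None of the 4 tested sugar enzymes and neither of the single tested genes of the lists of other ligands and other targets was called. Jag2, the second Jagged ligand, had 0.191 to 0.240 FPKM in WT, against 0.385, 0.219, 0.300 and 0.153 FPKM in LRP1 KO, and was below the filter. The list of other targets was made by HES and HEY family membership with feedback targets added, not by response to Notch. From it, Hes6, Hes2 and Nrarp were outside the naming rule and are given because Hey2 alone would show only 1 direction. Hes6, a HES family member and the list's tested gene, had 21.0 to 28.1 FPKM in WT, against 16.3 to 20.9 FPKM in LRP1 KO, without overlap (log2 difference -0.33, SE 0.11, limma adjusted p 0.077). Hes2 was at most 0.0621 FPKM in any library, and its groups did not overlap, with WT the higher. Nrarp, a feedback inhibitor that Notch switches on, had 0.506 to 0.732 FPKM in WT, against 1.90, 0.878, 1.51 and 0.336 FPKM in LRP1 KO, so that libraries 1 to 3 were above WT and library 4 below it.

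**Figure D3:**
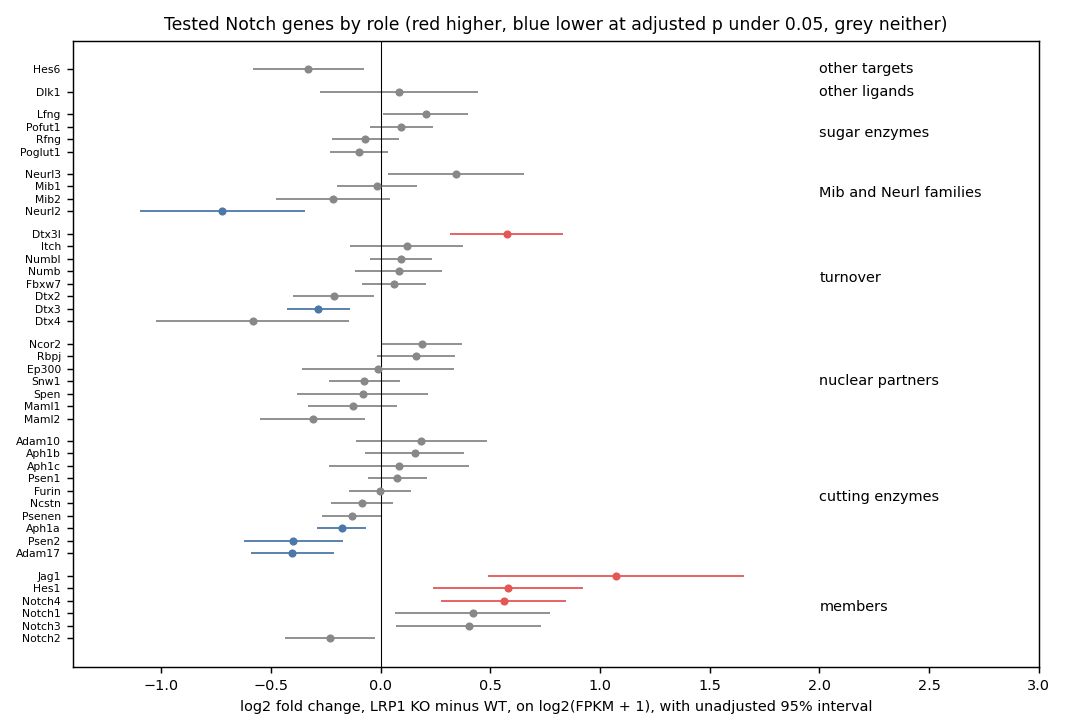
Difference between LRP1 KO and WT in log2(FPKM + 1) with its unadjusted 95% interval for the 6 tested members and the 35 tested pathway genes, grouped by role, with red for genes called higher, blue for lower and grey for neither. Jag1, Hes1, Notch4 and Dtx3l are the red points, and the 5 blue points all lie outside the members.

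Genes of arterial endothelium, in which Notch signaling is known to act, were examined beside the members. Of 8 such genes, 6 were tested and 3 rose, beside 6.27% of all tested genes called higher, with a median log2 difference of 0.48 over the 6 and of -0.01 over all tested genes. Cxcr4, a chemokine receptor, had 0.969 to 1.73 FPKM in WT, against 7.78, 4.71, 5.18 and 3.15 FPKM in LRP1 KO (log2 difference 1.34, SE 0.21, limma adjusted p 0.00583). Gja4, which encodes the gap junction protein connexin 37, had 1.39 to 2.48 FPKM in WT, against 2.80 to 7.16 FPKM in LRP1 KO, with library 4 lowest (0.97, SE 0.23, limma adjusted p 0.0279). Unc5b, a netrin receptor, had 30.8 to 36.5 and 38.4 to 50.2 FPKM (0.40, SE 0.09, limma adjusted p 0.0261). All 3 had no overlap between groups, library 4 included, beside 8.84% of all tested genes with LRP1 KO wholly above WT. Efnb2, Bmx and Nrp1 were tested and not called (limma adjusted p 0.088, 0.0983 and 0.931). Gja5 and Sox17 were below the filter, with LRP1 KO libraries 1 to 3 above WT and library 4 within its range. Which cells the RNA of these genes came from was not tested. Without LRP1 KO library 4, 4 of the 6 tested genes were called higher, beside 12.6% of all tested genes, and without any 1 of the other 7 libraries between 1 and 3 were. With the mean log2 level of the endothelial, mural or macrophage markers as a covariate, limma called 1, 0 and 0 of the 6, with 1, 0 and 3 at an unadjusted p under 0.05. Of the 4 venous genes 3 were tested, limma called 0 with or without LRP1 KO library 4 (0 at an unadjusted p under 0.05 in both) and their median was -0.04.

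Markers of several cell types also differed between the groups, and not all followed the members over the LRP1 KO libraries. All 12 endothelial markers were tested and had a positive difference, with a median of 0.96. Only 1 was called, beside 6.27% of all tested genes called higher. It was Eng, a coreceptor of the transforming growth factor beta family (0.94, SE 0.22, limma adjusted p 0.0279). Cdh5, the adhesion protein of endothelial junctions, had 8.98, 9.31, 11.2 and 8.87 FPKM in WT, against 47.3, 21.5, 33.9 and 8.56 FPKM in LRP1 KO. Pecam1, the protein used to select the cells, had 6.80 to 8.76 FPKM in WT, against 36.3, 18.5, 26.2 and 6.72 FPKM in LRP1 KO. For both genes libraries 1 to 3 were above WT and library 4 was just below it. When LRP1 KO library 4 was left out, 11 of the 12 endothelial markers were called higher, beside 12.6% of all tested genes. Without any 1 of the other 7 libraries limma called 0, with 8 to 10 at an unadjusted p under 0.05. Those fits called 4.5% to 8.85% of all tested genes in either direction. Library 4 was within the WT range for 7 of the 10 members, Notch1, Notch2, Notch3, Dll4, Hey1, Heyl and Hes1. The part of endothelial content in the members' differences was not tested. With the mean log2 level of the endothelial list as a covariate, the difference was 0.39 for Jag1, 0.27 for Notch4 and 0.24 for Hes1, with limma adjusted p of 0.565, 0.5 and 0.672. In the same fit it was 0.03 for Notch1, against 0.42 without the covariate (limma adjusted p 0.964), 0.24 for Notch3 and -0.09 for Notch2 (limma adjusted p 0.767 and 0.858).

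The mural list had 4 of 7 tested genes higher, beside 6.27% of all tested genes. Its sum was 1624, 1368, 1543 and 1037 FPKM in LRP1 KO against 668.2 to 833.9 FPKM in WT, without overlap. Acta2, smooth muscle actin, had 309 to 402 FPKM in WT, against 844, 695, 836 and 469 FPKM in LRP1 KO. Pdgfrb, the growth factor receptor of pericytes and fibroblasts, had 56.2 to 80.9 FPKM in WT, against 40.7 to 69.8 FPKM in LRP1 KO, with overlapping groups, and Rgs5, Kcnj8 and Abcc9, markers of pericytes, stayed below the filter. The macrophage list had 7 of 9 tested genes higher, with a sum of 55.4 to 95.6 FPKM in WT, against 357.5, 539.6, 221.7 and 480.6 FPKM in LRP1 KO, also without overlap. Lyz2, which encodes a lysozyme, had 24.0 to 54.3 FPKM in WT, against 237.8, 333.9, 128.9 and 298.3 FPKM in LRP1 KO (log2 difference 2.60, SE 0.31, limma adjusted p 0.00205), and was chosen as the called macrophage gene with the highest level. C1qa, a complement subunit of macrophages, was 1 of the 2 tested macrophage genes not called, with overlapping groups of 0.399 to 1.85 FPKM in WT and 2.47, 11.2, 1.08 and 12.1 FPKM in LRP1 KO (limma adjusted p 0.105). When LRP1 KO library 4 was left out, 5 mural and 6 macrophage genes were called higher, beside 12.6% of all tested genes. Without any 1 of the other 7 libraries 4 mural and 6 to 8 macrophage genes were, beside 4.5% to 8.85% of all tested genes in either direction. With the macrophage list as a covariate the differences and their SEs were larger (SE 0.57 for Jag1, against 0.26 without it), at 2.13 for Jag1, 0.79 for Notch4, 1.18 for Hes1 and 1.11 for Notch1, with limma adjusted p of 0.118, 0.215, 0.123 and 0.13. The values of Notch3 and Notch2 there were 0.61 and -0.35 (limma adjusted p 0.394 and 0.435). The part of mural cells and macrophages in the members' differences was not tested.

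The fibroblast list had 2 of 8 tested genes lower, beside 7.31% of all tested genes, and overlapping sums, with 1958 to 3123 FPKM in LRP1 KO. It had 5 lower without LRP1 KO library 4, beside 13.9% of all tested genes. Without any 1 of the other 7 libraries limma called 0 of the list, with 2 to 4 at an unadjusted p under 0.05. Of the 4 lymphatic markers 3 were tested and limma called 0, with 1 at an unadjusted p under 0.05. Pdpn, which is also expressed outside lymphatic vessels, made up most of their sum, with 197.3 to 250.5 FPKM in WT and 183.6 to 230.7 FPKM in LRP1 KO. Lyve1, a hyaluronan receptor, had 9.71 to 17.9 FPKM in WT, against 40.8, 19.0, 32.8 and 8.83 FPKM in LRP1 KO, and Flt4, a receptor for lymphatic growth factors, had 2.81 to 3.85 FPKM in WT, against 10.4, 5.29, 7.91 and 2.68 FPKM in LRP1 KO. In both genes LRP1 KO libraries 1 to 3 were above WT and library 4 below it. Prox1, a transcription factor of lymphatic identity, was below the filter, with 0.610 to 0.864 FPKM in WT, against 2.22, 0.632, 1.76 and 0.466 FPKM in LRP1 KO, so that only libraries 1 and 3 were above WT. When LRP1 KO library 4 was left out, Lyve1 and Flt4 were called higher, beside 12.6% of all tested genes. The part of lymphatic cells in the members' differences was not tested. Lymphocyte markers were listed at 0 in all libraries for 4 of 6 genes and summed to at most 0.105 FPKM. The 5 hepatocyte markers summed to 0.592 to 1.605 FPKM, with none tested. Of 5 cardiomyocyte markers 2 were tested and limma called 0, with 1 at an unadjusted p under 0.05, with and without LRP1 KO library 4. Without WT library 3, 1 was called lower. Most of the list's sum of 87.0 to 153.9 FPKM was Tnnt2, with a ratio of means of 0.777. Myh6, a cardiac myosin below the filter, had 0.180 to 0.414 FPKM in WT, against 0.646 to 1.51 FPKM in LRP1 KO, without overlap (limma adjusted p 0.0449 with no filter on low values), and Actc1 had a ratio of means of 2.09. Ryr2, at most 0.0611 FPKM in any library, was lower in LRP1 KO without overlap. Of 5 lung epithelial markers 1 was tested and was lower, with and without LRP1 KO library 4, and the list summed to 1.74 to 4.17 FPKM.

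**Figure D4:**
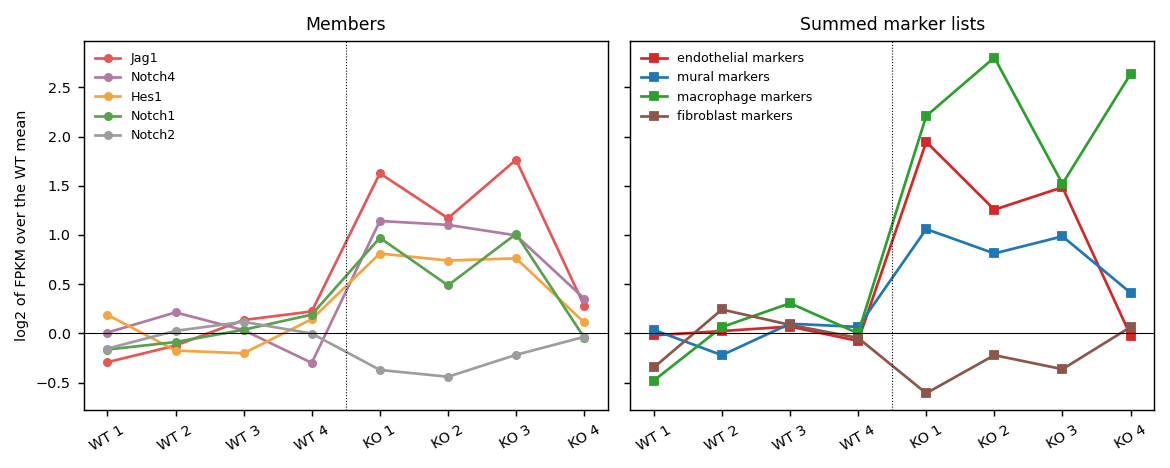
Each library's value as log2 of FPKM over the WT mean, with 5 members on the left and the summed FPKM of 4 marker lists on the right. Jag1, Notch1 and the endothelial sum are raised in LRP1 KO libraries 1 to 3 and near the WT mean in library 4, where the macrophage sum stays high at 480.6 FPKM.

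Jag1, Notch4 and Hes1 were examined under 16 or 17 other settings. Jag1 passed the adjusted threshold in 6 of 17, Notch4 in 6 of 16 and Hes1 in 5 of 17. Without the filter on low values, Jag1 and Hes1 had limma adjusted p of 0.0633 and 0.0735. All 3 genes had a positive difference in all settings except with the mural covariate, in which each was negative with a limma adjusted p of 1.0. The mural covariate did not overlap between the groups, so that fit can hardly tell it apart from genotype.

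**Figure D5:**
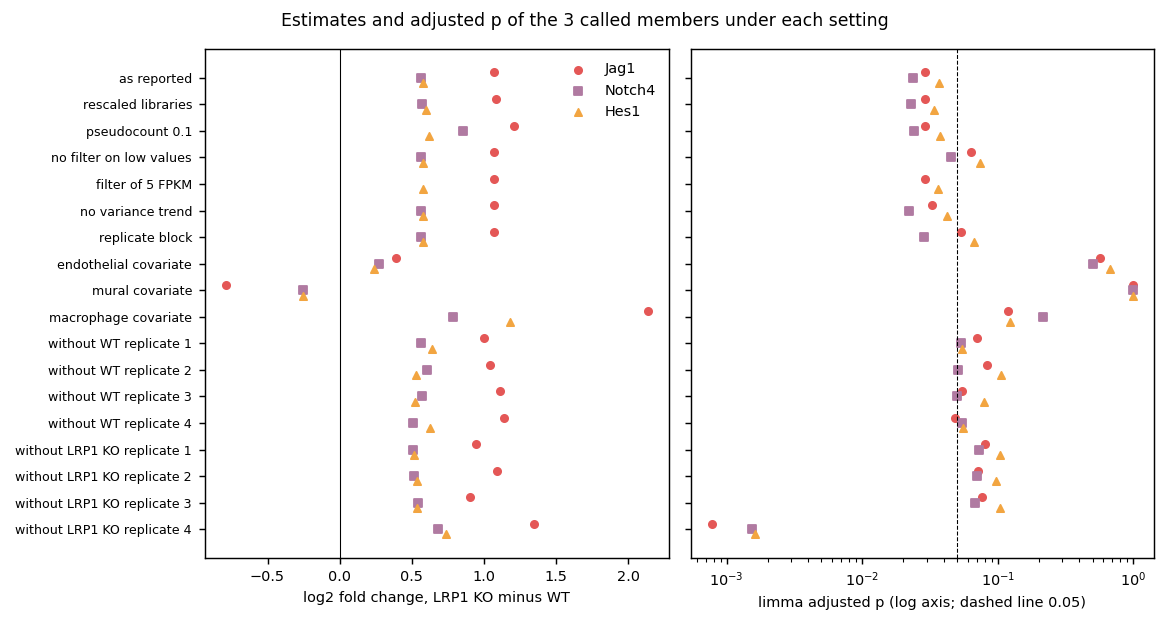
Difference between LRP1 KO and WT in log2(FPKM + 1) (left; pseudocount 0.1 in the setting of that name) and limma adjusted p on a log axis (right, dashed line at 0.05) for Jag1, Notch4 and Hes1 under each setting. The smallest adjusted p of each gene is reached without LRP1 KO library 4, at 0.000773, 0.00153 and 0.00161.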

How the data were processed

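RNA of 8 libraries was prepared with RNeasy and TruSeq kits per the labels. The authors deposited a table of FPKM values for 22520 genes. The submitters' processing notes name TopHat2, Cufflinks and mm10, while the study's methods describe counting with featureCounts and edgeR. The deposited values are not whole numbers and share 1 distribution, so the unit FPKM and quantile normalization were inferred from the values, and depth is lost.

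Groups and replicate numbers came from sample titles, and 0 columns were left unmapped. Genes with at least 1 FPKM in at least 4 of 8 libraries were analysed as log2(FPKM + 1), which understates changes of low genes. Groups were compared with limma 3.58.1 (R 4.3.3, group as the only term, variance trend, Benjamini-Hochberg over 11389 genes). Calls needed an adjusted p under 0.05. Single genes were also tested by an exact two-sided permutation test over 70 choices of libraries. The method was tested on simulated data. Positions came from GENCODE M21 by gene identifier (21740 of 22520 matched) and promoters from RefSeq. Samples with the same replicate number were not treated as pairs.

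The members and all lists were chosen with earlier results of these data known. Named were all members, Lrp1, called genes of the pathway and arterial lists (up to 4 a list), Rbpj, Jag2, Hey2, Cdh5, Pecam1, Pdgfrb, Acta2, C1qa and the 3 genes nearest in profile to a member with an SD of at least 0.5. Lyz2, the lymphatic and cardiomyocyte markers, the arterial genes not called, Maml3, Neurl1b, Nrarp, Hes6, Hes2, Eng, Rgs5, Kcnj8, Abcc9 and the Y-linked genes fall outside this rule and were picked with their values in view. Alternatives were another scaling, pseudocount, filter and variance model, a replicate block, 3 marker covariates and leaving out each library.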

Additional observations from a re-analysis of the deposited data

Results flagged for a closer look

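Hes1 in LRP1 KO library 4 was far below the other LRP1 KO libraries, at 12.84 FPKM against 19.8 to 20.8 FPKM. The gap to the nearest of them was 0.901 of the group's whole range, above Dixon's 95% critical value for 4 samples. It was the 1 such case among 20 groups examined (10 members in 2 groups), where chance alone gives about 1 in 20.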

How the results depend on the processing

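The number of members called was 3 as reported and also 3 after rescaling the libraries, with a pseudocount of 0.1 and without a variance trend, in fits that called 13.6%, 13.8%, 13.5% and 12.5% of all tested genes. It was 2 with a filter of 5 FPKM, under which 3 members were tested and 14.3% of all tested genes were called, and 1 without a filter, where 6.45% of 18026 genes were called. It was 0 with an endothelial, mural or macrophage covariate in limma, with 0, 0 and 4 members at an unadjusted p under 0.05, and with the macrophage covariate the differences of Jag1, Notch4, Hes1 and Notch1 were larger than as reported. Leaving out 1 library in turn gave 0 to 6 members and 512 to 3021 genes of all tested, where 1547 were called as reported, the most without LRP1 KO library 4. With the covariates the genes called were 158, 0 (241 at an unadjusted p under 0.05) and 12. With the mural covariate all 6 tested members changed sign, to -0.52 for Notch1, 0.0935 for Notch2, -0.35 for Notch3, -0.25 for Notch4, -0.79 for Jag1 and -0.25 for Hes1, and Lrp1 was -2.48, each with a limma adjusted p of 1.0. The mean log2 level of the mural list did not overlap between the groups, at 3.35 to 3.485 in WT and 3.718 to 3.899 in LRP1 KO. That covariate and genotype are therefore hard to tell apart, and the SEs were larger (0.71 for Jag1, against 0.26 as reported). The cause of the changes of sign was not tested. Lrp1 passed in the other 16 alternatives. Of the 35 other pathway genes tested, limma called 6 as reported, 1 with the endothelial covariate, 0 with the mural or macrophage covariate (1 and 8 at an unadjusted p under 0.05) and 1 to 10 when 1 library was left out, and the alternatives for these genes were chosen after seeing the data.

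With the replicate number as a block, 1 member (Notch4, limma adjusted p 0.0287) and 1013 genes were called, and Jag1 and Hes1 had adjusted p of 0.0535 and 0.0665. The deviations of libraries with the same number correlated at 0.158, 0.141, 0.34 and -0.312 for numbers 1 to 4, so the numbers were not taken as pairs, and not every library correlated best with its own number. Depth is unknown, and 4 members lay under the filter.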

Other observations

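Jag1 was the one member whose log2(FPKM + 1) varied with an SD of at least 0.5 over the 8 libraries (0.71). Of 11317 candidate genes, the 3 whose profiles over the 8 libraries lay nearest to it, by the root mean square difference of centred log2 values, were Cd44 (0.123), Pdgfd (0.141) and Tbx20 (0.146). Cd44, a cell-surface receptor for hyaluronan, had 7.66 to 12.4 FPKM in WT and 14.7 to 29.6 FPKM in LRP1 KO, with library 4 lowest. Pdgfd, a ligand of the platelet-derived growth factor family, had 1.69 to 2.95 and 3.72 to 8.39 FPKM, and Tbx20, a transcription factor of heart development, 4.25 to 6.74 and 7.42 to 17.6 FPKM. In both, LRP1 KO library 4 was again the lowest of its group and above every WT library. The genes were chosen for this likeness, so their own differences are a description.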
